A study of Mus musculus with 8 samples.

Results

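Glucose transport, glycolysis, pyruvate entry into mitochondria and the pentose phosphate pathway are covered here by 33 genes, picked by mouse symbol from the 31610 genes of a count table. The choice used no measured value, and all 33 genes were found. The table holds RNA sequencing of endothelial cells, the inner lining of blood vessels, which were isolated by cell sorting from lungs of the C57BL/6J strain. All mice carried an adeno-associated virus (AAV), a vector that delivers a gene to tissue: 4 libraries came from mice with a control AAV and 4 from mice with an nANGPTL4 AAV. ANGPTL4 is a secreted protein that inhibits lipoprotein lipase, and the n stands for its N-terminal fragment. The titles of the second group read NT Treated, which the labels leave unexplained, so the group is taken from the treatment field. The promoter and the target cells of the vector, its dose, the time after delivery and the age and sex of the mice are not given in the sources used here.

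Glycolysis splits glucose into pyruvate in the cytosol and yields ATP, and lactate dehydrogenase then interconverts pyruvate and lactate. Endothelial cells are known to draw much of their ATP from glycolysis even when oxygen is plentiful, and the regulator PFKFB3 is known for its part in vessel sprouting. The pentose phosphate pathway branches off at glucose 6-phosphate and makes NADPH for antioxidant defence and ribose for nucleotides. The hypoxia factor HIF-1, whose oxygen-regulated subunit is encoded by Hif1a, is a textbook activator of many glycolytic genes.

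No gene of this pathway was called different between the groups. The edgeR quasi-likelihood test was run over all 18874 genes that passed a filter on low counts, and a gene was called at a Benjamini-Hochberg adjusted p under 0.05. Of the 33 genes 31 passed the filter and 0 of these 31 were called, where 26 of all tested genes, or 0.138%, were called. At an unadjusted p under 0.05 the count was 2 of 31 (6.45%), beside 17.6% of all tested genes and 22.5% of the 9256 genes with a mean log2 CPM over 3 (CPM scales each count by the size of its library), here called expressed genes. The 2 genes were Slc2a1, the glucose transporter GLUT1, and Ldha, the main lactate dehydrogenase subunit, and both had lower values with nANGPTL4 AAV, as 10.3% of all tested genes did at that level. In 0 of the 31 genes did the 4 libraries of one group lie wholly on one side of the other group, beside 10.9% of all tested genes. Log2 fold changes (nANGPTL4 AAV minus control AAV throughout) ranged from -0.34 to 0.18 with a median of -0.01, where the median was 0.01 over all tested genes and -0.03 over the 9256 expressed ones. Of the 31 values, 19 were negative and 12 positive. DESeq2 also called 0 of the 31, where it called 6.14% of the genes it tested.

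The data bounded most of these differences closely. The 95% interval of the log2 fold change lay within 0.25 of 0 on both sides for 21 of the 31 genes, and within 0.15 for 12, where 0.15 is a rise of 11% and 0.25 one of 18.9%. Summed over the 33 genes, the level reached 2519 ± 33.6 CPM with control AAV and 2486 ± 49.8 CPM with nANGPTL4 AAV (SD, n = 4 libraries per group here and throughout). The single libraries had sums of 2524, 2563, 2506 and 2484 CPM with control AAV and 2458, 2548, 2502 and 2435 CPM with nANGPTL4 AAV, so the groups overlapped.

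**Figure D1:**
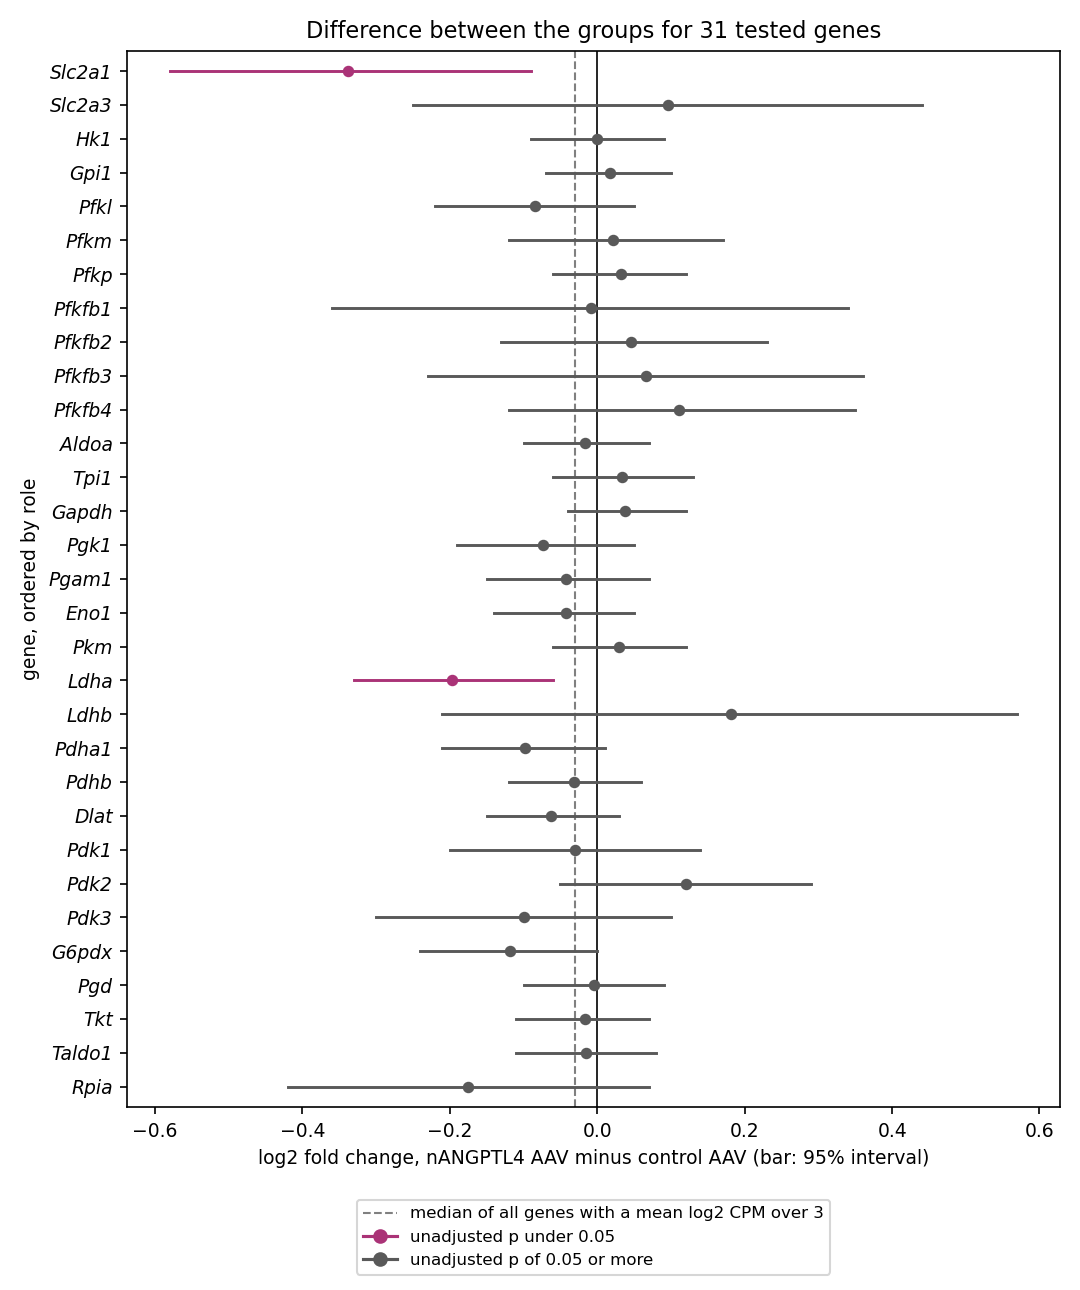
Log2 fold change of each tested gene (horizontal axis, nANGPTL4 AAV minus control AAV) with its 95% interval from the edgeR fit, one gene per row and ordered by role, with the median of expressed genes as a dashed line. Slc2a1 at -0.34 and Ldha at -0.20 are the 2 genes whose unadjusted p lies under 0.05, and Ldhb at 0.18 has the highest value.

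The libraries were deep, although some genes of the pathway, such as Hk2 and Aldoc, had few counts. Library totals ranged from 83183122 to 114337333 counts, and 26652 to 29969 genes had at least 1 count per library. Of Angptl4, the mouse counterpart of what the vector carries, the control AAV libraries held 304, 332, 321 and 285 counts and the nANGPTL4 AAV libraries 360, 667, 465 and 558. Its log2 fold change was 0.63 (SE 0.17) and did not pass the edgeR test over all genes (adjusted p = 0.110). The adjusted p from DESeq2 was 0.00901, and the groups did not overlap. Whether reads of the vector could be counted there is not stated in the sources used here. Summed levels of 16 endothelial markers were 29594 to 30577 CPM with control AAV and 27942 to 28814 CPM with nANGPTL4 AAV, so the cells had the endothelial identity of the label, but the sums of the groups did not overlap.

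Stretches just before a RefSeq transcription start of 4 genes are shown here because HIF-1 is known to bind the core ACGTG. Another reason is that Hif1a was the one called gene in the neighbouring pathways described further on. Slc2a1 and Ldha had the lowest unadjusted p of the pathway, while Pgk1 and Gapdh, chosen after their values were seen, are glycolytic genes whose p was higher. Each is the 250 bases before a transcription start in RefSeq (GRCm38.p6, the mm10 assembly), printed 5′ to 3′ on the strand of the gene. Capitals mark every ACGTG or its reverse complement CACGT, so that the palindrome CACGTG holds a match on both strands. For Slc2a1 the window is chr4:119108495-119108744 on the plus strand, for Ldha chr7:46845554-46845803 on the plus strand, for Pgk1 chrX:106186850-106187099 on the plus strand and for Gapdh chr6:125165774-125166023 on the minus strand. The Ldha and Gapdh windows lie within the GENCODE bounds of these genes, 46841475-46855627 and 125161715-125166467. The Slc2a1 window runs past the GENCODE start of that gene at 119108711.
Slc2a1: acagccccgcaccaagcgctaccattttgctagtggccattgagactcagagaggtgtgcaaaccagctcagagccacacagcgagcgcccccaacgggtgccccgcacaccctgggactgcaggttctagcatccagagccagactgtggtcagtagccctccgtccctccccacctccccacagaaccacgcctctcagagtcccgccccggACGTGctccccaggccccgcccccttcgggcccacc
Ldha: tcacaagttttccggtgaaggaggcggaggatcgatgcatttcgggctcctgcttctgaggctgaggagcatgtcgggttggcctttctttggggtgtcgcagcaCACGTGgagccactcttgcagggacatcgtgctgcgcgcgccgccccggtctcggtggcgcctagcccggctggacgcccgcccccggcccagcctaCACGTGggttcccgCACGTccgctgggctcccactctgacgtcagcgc
Pgk1: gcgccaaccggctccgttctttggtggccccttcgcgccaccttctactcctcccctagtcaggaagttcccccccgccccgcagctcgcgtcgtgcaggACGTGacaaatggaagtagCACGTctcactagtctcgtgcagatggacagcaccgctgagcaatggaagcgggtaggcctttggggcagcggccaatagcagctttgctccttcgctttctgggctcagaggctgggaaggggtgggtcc
Gapdh: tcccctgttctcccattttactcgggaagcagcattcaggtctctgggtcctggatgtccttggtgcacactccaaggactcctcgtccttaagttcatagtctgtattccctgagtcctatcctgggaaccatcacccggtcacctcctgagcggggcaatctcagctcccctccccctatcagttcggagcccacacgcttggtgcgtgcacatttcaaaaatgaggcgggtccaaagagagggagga

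In these windows Slc2a1 had 1 match to ACGTG, Pgk1 had 2, Gapdh had 0, and Ldha had 5 in 3 separate stretches. Of GCGTG, the other core that HIF-1 is known to bind and which is not in capitals, Gapdh had 2 matches on either strand, Slc2a1 had 1, and Pgk1 and Ldha had 0. A second RefSeq window of Ldha, chr7:46846832-46847081 on the plus strand, had 0 of ACGTG and 1 of GCGTG. RefSeq windows were matched for 32 of the 33 genes, Slc2a3 being the gene with no entry. ACGTG on either strand lay in 17 of 52 such windows of the pathway (32.7%), beside 16.6% of 32851 windows of all genes. GCGTG lay in 55.8% and 28.2% of these windows. Several genes have more than 1 window, and some of these overlap, as for Eno1 and Aldoa, so the same bases can count more than once. A match is a description of letters and shows no binding, and both cores are rich in CG, as many promoters of widely expressed genes are.

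Glucose enters endothelial cells through facilitative carriers, of which Slc2a1 (GLUT1) is the best known and Slc2a3 (GLUT3) a high-affinity relative. Slc2a1 (ENSMUSG00000028645, chr4:119108711-119137983, plus strand, mm10) was at 20.9, 26.0, 25.8 and 24.3 CPM in control AAV libraries 1 to 4 and at 17.6, 23.9, 18.5 and 16.8 CPM in nANGPTL4 AAV libraries 1 to 4. Libraries 1, 3 and 4 of nANGPTL4 AAV were below every control AAV library, and library 2 lay among the controls. The means were 24.3 ± 2.35 and 19.2 ± 3.23 CPM, with a log2 fold change of -0.34 (SE 0.11, with an edgeR adjusted p of 0.157 over all genes). The estimate is thus 20.9% lower, with a 95% interval from 6.26% to 33.2% lower. Its unadjusted p was 0.0113 in the edgeR fit. Over the 16 alternative fits the log2 fold change of Slc2a1 lay between -0.45 and -0.28, its unadjusted p was under 0.05 in 16 of 16, and its adjusted p lay between 0.0583 and 0.346. The value of -0.45 came without nANGPTL4 AAV library 2. Antisense gene Gm12868 covers 2.99% of the exons of Slc2a1, and since the strand setting of the counting is not given, such reads cannot be told apart. Slc2a3 was far lower and more variable, at 4.35 to 8.10 CPM with control AAV and 6.43 to 7.53 CPM with nANGPTL4 AAV, and its log2 fold change was 0.10 (SE 0.16).

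Hexokinase traps glucose in the cell as glucose 6-phosphate, and of the pair in this set Hk1 was by far the more abundant. Hk1 was at 229, 248, 231 and 237 CPM in the control AAV libraries and at 236, 241, 232 and 235 CPM in the nANGPTL4 AAV libraries, with the same mean of 236 CPM in both groups. The 95% interval of its log2 fold change ran from -0.09 to 0.09, a narrow bound around no difference. Hk2, the insulin- and hypoxia-regulated hexokinase of muscle and tumours, had 5, 12, 8 and 5 counts with control AAV and 6, 7, 16 and 21 counts with nANGPTL4 AAV. It failed the filter on low counts, so it was not tested, and the groups overlapped. Gpi1, the isomerase that turns glucose 6-phosphate into fructose 6-phosphate, was at 142 ± 3.08 and 144 ± 2.63 CPM, and its log2 fold change was 0.02 (SE 0.04).

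Phosphofructokinase commits the sugar to glycolysis and comes as liver (Pfkl), muscle (Pfkm) and platelet (Pfkp) forms. Pfkl was at 107, 121, 110 and 107 CPM in the control AAV libraries and at 109, 114, 98.1 and 97.7 CPM in the nANGPTL4 AAV libraries. Libraries 3 and 4 of nANGPTL4 AAV had the lowest values, and the other 2 lay among the controls (log2 fold change -0.09, SE 0.06, with an edgeR adjusted p of 0.515). Pfkp was at 94.5 ± 3.87 and 96.6 ± 1.53 CPM and Pfkm at 27.8 ± 2.55 and 28.2 ± 0.837 CPM, with log2 fold changes of 0.03 and 0.02.

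The PFKFB enzymes make and degrade fructose 2,6-bisphosphate, the strongest activator of phosphofructokinase, and Pfkfb3 is the form best known in endothelium. Pfkfb3 was at 81.6, 56.6, 72.5 and 52.4 CPM with control AAV and at 69.0, 59.0, 80.3 and 67.2 CPM with nANGPTL4 AAV. High and low libraries occurred in both groups: the within-group SD of its log2 level was 0.25, where expressed genes (those over 3 in mean log2 CPM) were at a median of 0.083. Its log2 fold change of 0.07 (SE 0.14) had a 95% interval from -0.23 to 0.36, so moderate differences in either direction were not detectable. The other 3 forms were lower in level, and their values for the groups were close: Pfkfb2 at 8.71 ± 0.761 and 9 ± 0.505 CPM, Pfkfb4 at 3.46 ± 0.362 and 3.74 ± 0.261 CPM, and Pfkfb1 at 1.23 ± 0.215 and 1.22 ± 0.114 CPM.

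Aldolase splits fructose 1,6-bisphosphate into a pair of triose phosphates, which triose phosphate isomerase (Tpi1) interconverts. Aldoa was the most abundant gene of the pathway per length of transcript and varied little, at 375, 382, 377 and 368 CPM in the control AAV libraries and at 363, 382, 375 and 365 CPM in the nANGPTL4 AAV libraries. Its log2 fold change was -0.02 (SE 0.04), with a 95% interval from -0.10 to 0.07. Aldoc, the brain form, had 8, 23, 9 and 7 counts with control AAV and 9, 9, 7 and 15 counts with nANGPTL4 AAV, and it failed the filter. Tpi1 was at 72.9 ± 1.35 and 74.6 ± 3.48 CPM.

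The later steps of glycolysis return ATP and NADH. Pkm, the pyruvate kinase of most tissues outside liver, was at 324, 323, 309 and 319 CPM with control AAV and at 318, 337, 333 and 314 CPM with nANGPTL4 AAV, with libraries of both groups interleaved (log2 fold change 0.03, SE 0.04). Gapdh, which oxidises glyceraldehyde 3-phosphate, was the least variable gene of the set. It was at 109 ± 1.23 and 112 ± 1.68 CPM, with a log2 fold change of 0.04 (SE 0.04) and a within-group SD of 0.02 on the log2 scale. Pgk1 and Eno1, the phosphoglycerate kinase and enolase, had log2 fold changes of -0.07 (SE 0.05) and -0.04 (SE 0.04), and Pgam1, the phosphoglycerate mutase between them, one of -0.04 (SE 0.05). None of the 5 genes of these steps passed even the unadjusted threshold. Counts of this group are less certain than most, since parts of their sequence recur in other annotated genes, whose types were not sorted here. Of the 31-base stretches of Pgk1 54.73% recur in this way, as do 37.12% of those of Pgam1, 34.66% of those of Pkm, 28.52% of those of Eno1 and 28.06% of those of Gapdh.

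Lactate dehydrogenase is built from subunits encoded by Ldha, favoured in glycolytic tissue, and Ldhb, favoured in heart. Ldha (ENSMUSG00000063229, chr7:46841475-46855627, plus strand, mm10) was at 168, 196, 180 and 162 CPM in the control AAV libraries and at 164, 149, 149 and 155 CPM in the nANGPTL4 AAV libraries. Libraries 2, 3 and 4 of nANGPTL4 AAV were below every control, while library 1 at 164 CPM lay just above the lowest control at 162 CPM. The means were 177 ± 14.9 and 154 ± 6.91 CPM, with a log2 fold change of -0.20 (SE 0.06, with an edgeR adjusted p of 0.144 over all genes). This is 12.8% lower, with a 95% interval from 4.11% to 20.6% lower, and an unadjusted p of 0.00886 in the edgeR fit. Over the 16 alternative fits the log2 fold change of Ldha lay between -0.24 and -0.13, its unadjusted p was under 0.05 in 16 of 16, and its adjusted p lay between 0.0808 and 0.346. The value of -0.13 came without control AAV library 2, the highest. Of the 31-base stretches of Ldha 19.56% recur in other genes. Ldhb was scarce, at 0.988 to 1.57 CPM with control AAV and 1.2 to 1.53 CPM with nANGPTL4 AAV (log2 fold change 0.18, SE 0.18).

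**Figure D2:**
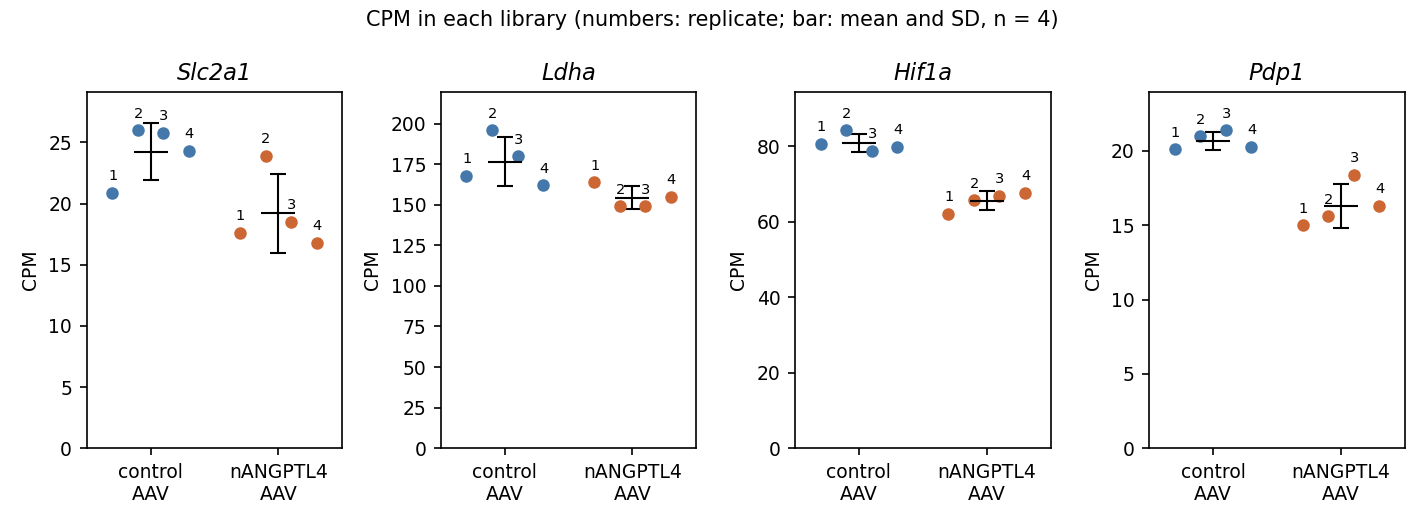
CPM (vertical axes, TMM scaling) of Slc2a1, Ldha, Hif1a and Pdp1 in each of the 4 control AAV and 4 nANGPTL4 AAV libraries, one point per library with the group mean and SD. The groups overlap for Slc2a1 and Ldha, while for Hif1a and Pdp1 every nANGPTL4 AAV library lies below every control AAV library.

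Pyruvate that is not turned into lactate enters mitochondria and meets the pyruvate dehydrogenase complex, whose subunits are encoded by Pdha1 and Pdhb (the alpha and beta parts of E1) and Dlat (E2). Pdhb was at 56.2, 53.5, 51.9 and 52.1 CPM with control AAV and at 51.3, 52.8, 53.2 and 51.8 CPM with nANGPTL4 AAV, so the groups overlapped (log2 fold change -0.03, SE 0.04). Pdha1 was at 67.0 ± 1.90 and 62.6 ± 3.55 CPM, giving a log2 fold change of -0.10 (SE 0.05, with an edgeR adjusted p of 0.321), and Dlat at 50.4 ± 0.692 and 48.2 ± 1.93 CPM, one of -0.06 (SE 0.04). All 3 estimates were negative and none passed the unadjusted threshold. Of the exonic bases of Pdha1 16.15% overlap Map3k15 on the other strand.

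The PDH kinases switch that complex off by phosphorylation. Pdk2 was the most abundant of the 3 in this set, at 48.9, 43.0, 43.7 and 50.9 CPM in the control AAV libraries and at 45.9, 58.0, 50 and 48.8 CPM in the nANGPTL4 AAV libraries. Library 2 of nANGPTL4 AAV was the highest and the rest overlapped (log2 fold change 0.12, SE 0.08, with an edgeR adjusted p of 0.459). Pdk1, a known HIF-1 target, was at 25.9 ± 1.82 and 25.4 ± 2.32 CPM, and Pdk3 at 7.18 ± 0.392 and 6.70 ± 0.668 CPM, with log2 fold changes of -0.03 (SE 0.07) and -0.10 (SE 0.09).

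The oxidative arm of the pentose phosphate pathway makes NADPH in the steps run by G6pdx, its entry enzyme, and Pgd. Pgd was at 53.2, 50.2, 50.8 and 52.6 CPM with control AAV and at 51.8, 52.2, 53.4 and 48.7 CPM with nANGPTL4 AAV, and its 95% interval ran from -0.10 to 0.09 on the log2 scale. G6pdx was nearer the unadjusted threshold. It was at 33.1, 35.2, 35.3 and 33.5 CPM in the control AAV libraries and at 31.2, 34.3, 31.6 and 29.2 CPM in the nANGPTL4 AAV libraries, and library 2 alone of the latter lay among the controls. Its log2 fold change was -0.12 (SE 0.06, with an edgeR adjusted p of 0.294), and 13.57% of its exonic bases overlap Ikbkg on the other strand.

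The non-oxidative arm shuffles sugars between ribose 5-phosphate and glycolysis. Taldo1, the transaldolase, was at 132, 135, 139 and 136 CPM with control AAV and at 130, 141, 132 and 134 CPM with nANGPTL4 AAV, with full overlap between the groups. Tkt, the transketolase, was at 126 ± 3.66 and 124 ± 3.90 CPM, and both genes had log2 fold changes within 0.02 of 0. Rpia, the ribose phosphate isomerase, was low at 2 ± 0.144 and 1.77 ± 0.0970 CPM, with a log2 fold change of -0.17 (SE 0.11, with an edgeR adjusted p of 0.454).

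**Figure D3:**
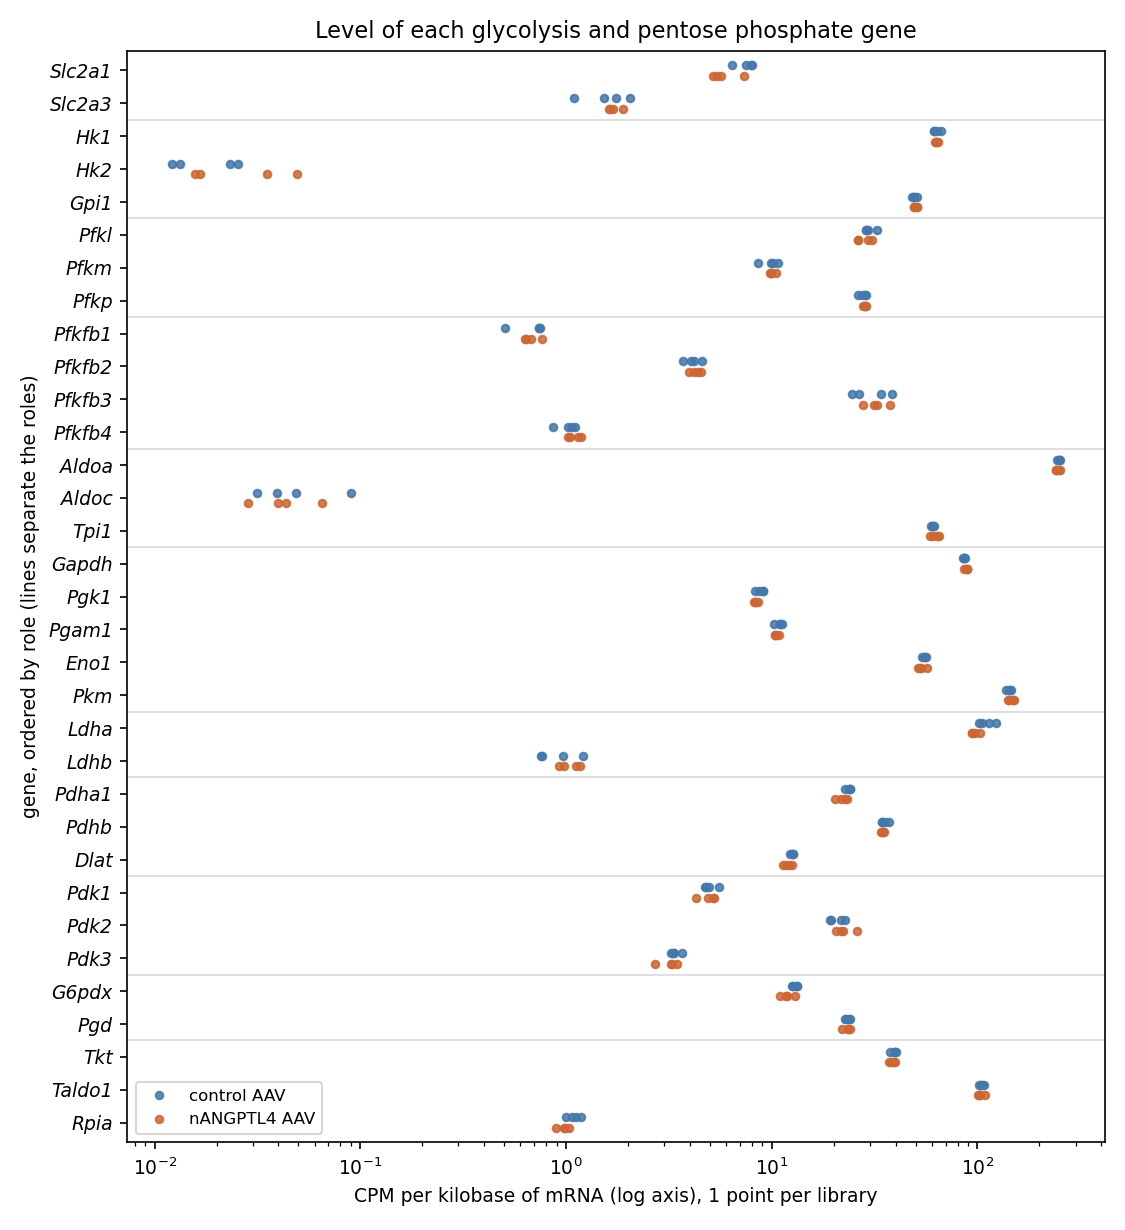
Level of each of the 33 genes in each of the 8 libraries as CPM per kilobase of transcript (log axis), ordered by role, with control AAV in blue and nANGPTL4 AAV in orange. Mean levels span from 247 for Aldoa to 0.0238 for Hk2, and the colours overlap in every tested gene.

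Levels were set side by side between genes as CPM per kilobase, using the median length of the protein-coding transcripts of each gene. Aldoa stood first at a mean of 247 over the 8 libraries and Pkm was next at 144. Ldha and Taldo1 followed, both at 104, then Gapdh at 87.0, Hk1 at 63.1, Tpi1 at 61.2, Eno1 at 54.2 and Gpi1 at 49.5. Transketolase Tkt reached 38.9 and Pfkfb3 31.5, next to the phosphofructokinase forms Pfkl at 28.9 and Pfkp at 28.0. At the low end stood Slc2a1 at 6.67, Slc2a3 at 1.66 and Ldhb at 0.983, with Aldoc at 0.0483 and Hk2 at 0.0238. Ldha against Taldo1, and Pfkfb3 against Pfkl, did not differ beyond the spread over libraries on this scale. The order rests on the length assumed for each gene: per kilobase of the union of all annotated exons, Pfkfb3 was at 8.9 and Pfkl at 16.2, and Ldha at 50 and Taldo1 at 62.1.

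Within this set most steps were carried by a single isoenzyme, as shares of the CPM per kilobase of its genes of each family. Isoenzymes that were read only in the neighbouring lists are not part of these totals. Ldha made up 99.2% of the lactate dehydrogenase total in control AAV and 98.9% in nANGPTL4 AAV, and Hk2 only 0.0293% and 0.0464% of the total of Hk1 and Hk2. Aldoc made up 0.0210% and 0.0180% of the aldolase pair. Pfkfb3 held 83.8% ± 2.70 and 84.1% ± 1.54 of the PFKFB total, and Pdk2 71.1% ± 1.88 and 73.6% ± 1.5 of the 3 PDH kinases of the set. Phosphofructokinase was shared instead: Pfkl 44.2% and 42.3%, Pfkp 41.1% and 42.6%, Pfkm 14.6% and 15.1%. That division depended on the length used. With the union of all annotated exons in place of the median transcript, Pfkp stood at 22% and 23% and Pfkl at 52% and 50%.

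Ratios within a library do not depend on how library sizes are scaled, and 6 isoenzyme ratios were compared between the groups. Of 8 ratios planned, Hk1 to Hk2 and Aldoa to Aldoc were left out because a gene had under 10 counts in a library. Slc2a1 to Slc2a3 was 2.55, 1.97, 2.37 and 2.1 on the log2 scale with control AAV and 1.71, 2.11, 1.58 and 1.67 with nANGPTL4 AAV, a difference of -0.48 (exact two-sided permutation p = 0.0857, Benjamini-Hochberg p = 0.257 over the 6). As a share, Slc2a1 went from 82.5% ± 2.60 to 77.2% ± 2.77 of the 2 carriers. For Ldha to Ldhb the means were 6.94 and 6.54, a difference of -0.39 with the same exact permutation p of 0.0857. The remaining 4 ratios differed by -0.22 (Pdk3 to Pdk2), -0.15 (Pdk1 to Pdk2), -0.12 (Pfkl to Pfkp) and -0.11 (Pfkl to Pfkm), with exact permutation p-values from 0.143 to 0.343. None of the 6 passed, the groups overlapped in each, and the smallest p that 4 against 4 libraries allow is 0.0286. After adjustment over the 6, a single ratio at that smallest p could not have passed. Several ratios would have had to reach it together, so the lack of a passing ratio says little.

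Spread between libraries of one group was small for most of the pathway. Over the 25 genes of the set with a mean log2 CPM over 3, the median within-group SD of log2 CPM was 0.049, beside 0.083 over the 9256 expressed genes. It was at most 0.05 for 15 of the 25 and at least 0.10 for 8 of them, among these Slc2a1 (0.19), Pfkfb3 (0.25) and Pdk2 (0.13). Of the 31 tested genes, nANGPTL4 AAV library 2 had the highest value in 8, control AAV libraries 1 and 2 in 7 each, and nANGPTL4 AAV libraries 1 and 4 in 0. Those nANGPTL4 AAV libraries 1 and 4 had the lowest value in 7 genes each. Their median deviations from the gene means were -0.019 and -0.029 over the 31 genes, beside -0.024 and -0.028 over the 9256 expressed genes.

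**Figure D4:**
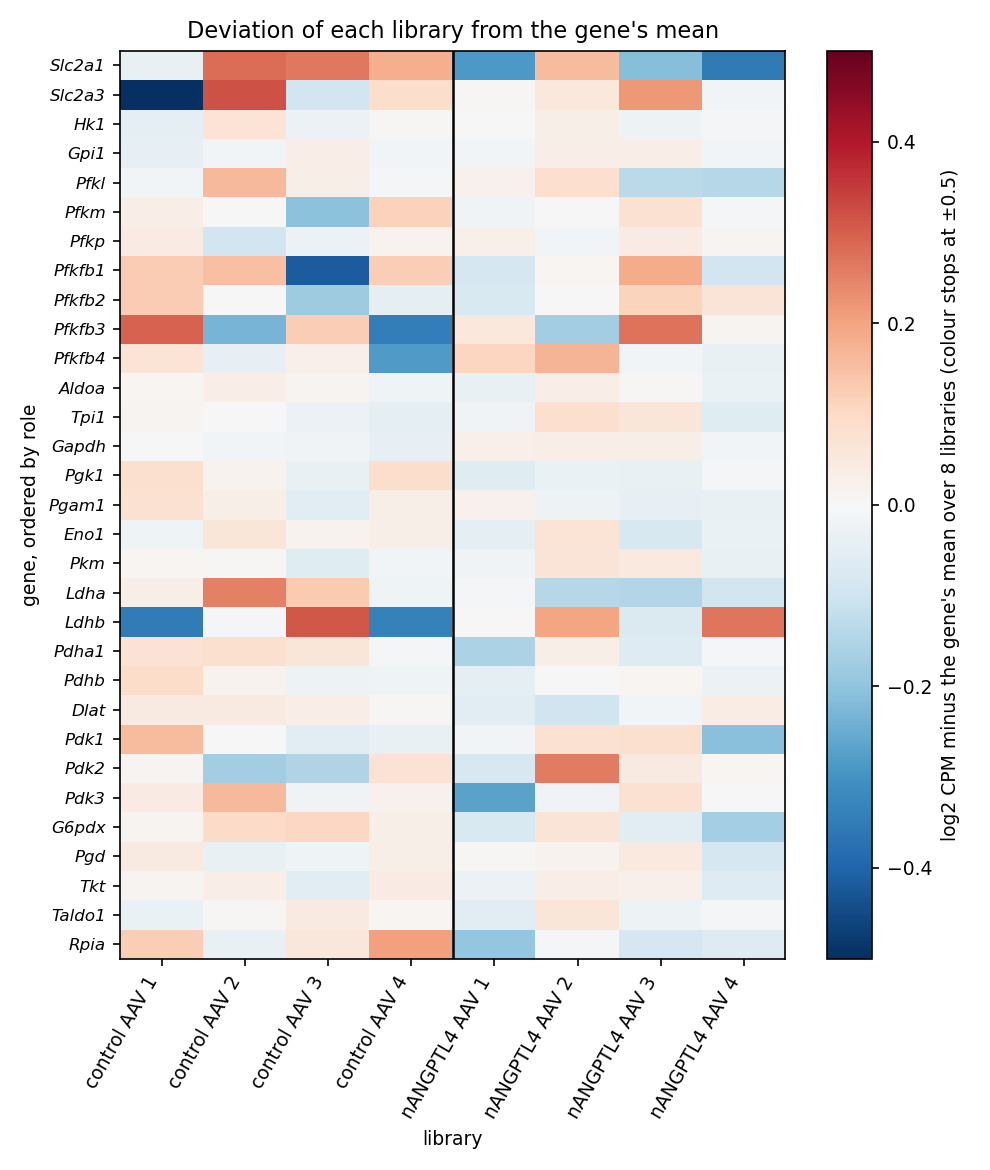
Deviation of each tested gene (rows) in each library (columns) from its mean log2 CPM over the 8 libraries, as a colour from below to above the mean. Slc2a1 ranges from -0.352 in nANGPTL4 AAV library 4 to 0.28 in control AAV library 2, and most rows show little colour in either group.

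Around the pathway, 8 lists of other genes were read from the same fit. They hold 138 genes, of which 137 were in the table and 123 were tested. Hif1a was the single called gene of the 123, where 26 of all 18874 tested genes (0.138%) were called. Of the 123, 16 (13.0%) had an unadjusted p under 0.05, 2 higher and 14 lower, and 9 (7.32%) had groups that did not overlap. Their median log2 fold change was -0.01. These pooled shares lie below the 17.6% and 10.9% over all tested genes given above.

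Of 20 tested regulators of glucose use, 1 was called, where 0.138% of all tested genes were. An unadjusted p under 0.05 was found for 3 (15%), all lower, and groups that did not overlap for 2 (10%). Over all tested genes these shares were 17.6% and 10.9%. Hif1a, the oxygen-regulated subunit of HIF-1, was at 80.6, 84.2, 78.7 and 79.8 CPM in the control AAV libraries and at 62.1, 65.7, 66.8 and 67.6 CPM in the nANGPTL4 AAV libraries, so the groups were well apart. Its mean fell from 80.8 ± 2.42 to 65.5 ± 2.43 CPM, giving a log2 fold change of -0.30 (SE 0.04, with an edgeR adjusted p of 0.0369). It was called in 5 of the 16 alternative fits, with adjusted p-values from 9.27e-07 to 0.162, and 5.60% of its exonic bases overlap an antisense gene. Mlx, the partner of the glucose-sensing factor ChREBP, was at 34.9 ± 0.937 and 31 ± 0.21 CPM (log2 fold change -0.17, edgeR adjusted p = 0.0890, DESeq2 adjusted p = 0.00855). The groups did not overlap, and 19.26% of its exonic bases overlap Psmc3ip. Arnt, the constant partner of Hif1a, had a log2 fold change of -0.11.

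Among 19 tested hypoxia targets outside glycolysis 0 were called and 2 had an unadjusted p under 0.05, both lower (10.5%, beside 17.6% of all tested genes). Values were negative for 12 and positive for 7 of the 19, and the median was -0.04. Beside these, 5787 of the 9256 expressed genes were negative with a median of -0.03. Of all 18874 tested genes 9014 were negative, with a median of 0.01. By library size only, 9 of the 19 targets were negative and their median was 0.0. Those with the smallest p were Vegfa, the vascular growth factor, at 1201 ± 97.0 and 1058 ± 85 CPM (log2 fold change -0.18), Bhlhe40, a hypoxia-induced repressor, at 30.9 ± 6.22 and 22 ± 7.49 CPM (-0.49), and the Myc antagonist Mxi1 at 42.4 ± 0.917 and 45.2 ± 2.1 CPM (0.09).

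Of 9 other tested pyruvate entry genes 0 were called and 2 had an unadjusted p under 0.05, both with groups that did not overlap. Both counts are 22.2% of this short list, above the 17.6% and 10.9% of all tested genes. Pdp1 encodes a phosphatase that reactivates pyruvate dehydrogenase, the opposite of the PDH kinases. It was at 20.1, 21, 21.4 and 20.3 CPM with control AAV and at 15, 15.6, 18.4 and 16.3 CPM with nANGPTL4 AAV, a log2 fold change of -0.34 (SE 0.07). Its edgeR adjusted p was 0.0657, and DESeq2 gave an adjusted p of 0.0011. Dld, the E3 subunit that pyruvate dehydrogenase shares with other complexes, was at 57.2 ± 1.81 and 49.9 ± 3.14 CPM, giving a log2 fold change of -0.19 (edgeR adjusted p = 0.106, DESeq2 adjusted p = 0.0322). Pdhx, the E3-binding subunit, had a log2 fold change of 0.11.

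The remaining lists held 0 called genes each, where 0.138% of all tested genes were called. Their shares at an unadjusted p under 0.05 stand beside 17.6% of all tested genes. Of 18 other glycolytic isoenzymes and bypass genes 2 (11.1%) had an unadjusted p under 0.05, both lower. These were G6pc3, a glucose 6-phosphatase, at 28.2 ± 1.2 and 24.8 ± 1.07 CPM (log2 fold change -0.18, edgeR adjusted p = 0.120, DESeq2 adjusted p = 0.0405), and Adpgk, an ADP-dependent glucokinase, at -0.13. Bpgm, which makes 2,3-bisphosphoglycerate, was next at 0.16. Of 24 genes of the glycogen, hexosamine and polyol branches 2 (8.33%) had an unadjusted p under 0.05, 1 in each direction. Gfpt1, the entry enzyme of hexosamine synthesis, was at 32.4 ± 1.92 and 27.5 ± 1.59 CPM (log2 fold change -0.24, edgeR adjusted p = 0.0977, DESeq2 adjusted p = 0.0211), Pgm3, a later enzyme of that branch, at 0.14, and Pygm, the muscle glycogen phosphorylase, at 0.21. Of the exonic bases of Pgm3 28.30% overlap Dop1a.

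Among 8 other tested glucose carriers 1 had an unadjusted p under 0.05 (12.5%, beside 17.6% of all tested genes). The genes with the smallest p were Slc2a13, a proton-coupled inositol carrier, with a log2 fold change of -0.22, Slc5a2, the kidney sodium-glucose carrier SGLT2, with 0.30 at 1.17 and 1.44 CPM and 20.61% of its exons shared with BC017158 on the other strand, and Slc2a6 with 0.37. Among 9 other pentose phosphate genes 2 had an unadjusted p under 0.05 (22.2%, beside the same 17.6%), 1 in each direction. The names with the smallest p were Prps2, which makes phosphoribosyl pyrophosphate (-0.19), the transketolase-like Tktl1 (0.61, at 0.343 and 0.520 CPM) and the sedoheptulose kinase Shpk (0.23). Of 16 NRF2 targets outside the pentose phosphate pathway, genes of the NADPH-using antioxidant response, 2 (12.5%) had an unadjusted p under 0.05, both lower. Gsr, the glutathione reductase, was at -0.10, Txnrd1, the thioredoxin reductase, at -0.09 and Srxn1, the sulfiredoxin, at 0.14.

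**Figure D5:**
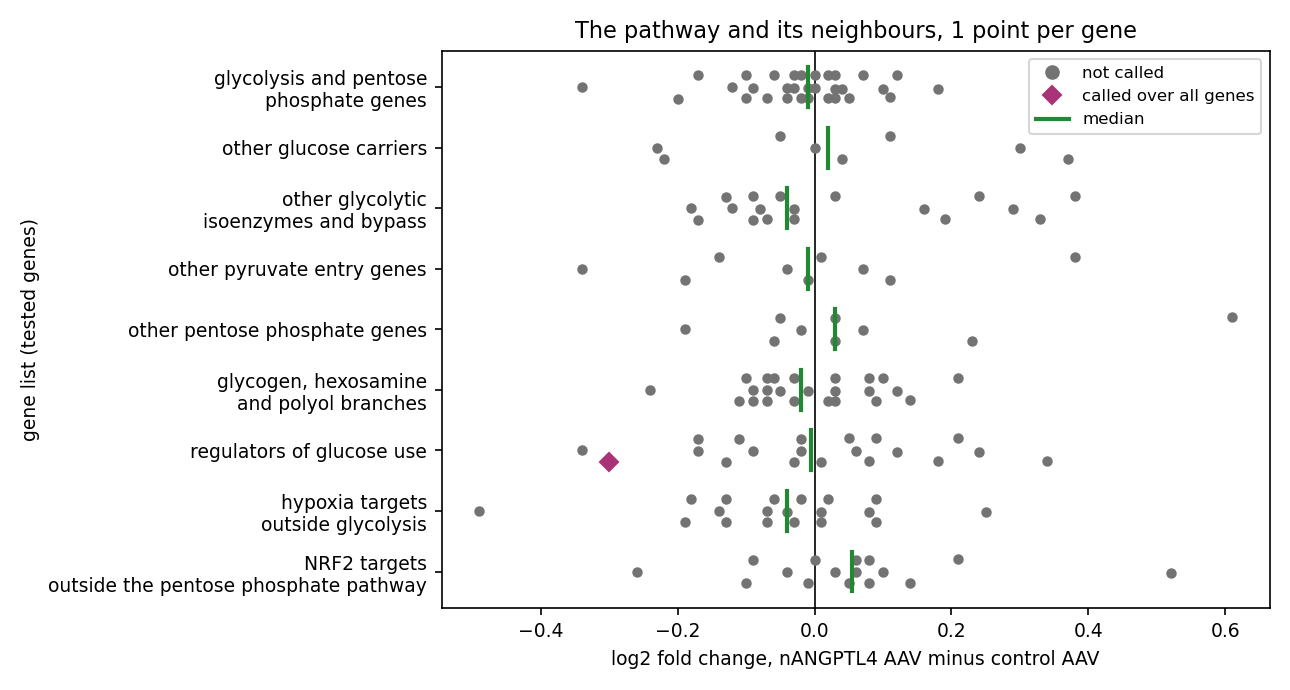
Log2 fold changes (nANGPTL4 AAV minus control AAV) of the tested genes of the glycolysis and pentose phosphate set and of the 8 neighbouring lists, one point per gene and one row per list, with the list median as a green bar and called genes as diamonds. The medians lie near 0, and Hif1a at -0.30 is the one called gene.

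Markers of other cells were read beside these values, and among them 1 gene was called, Scgb3a2, a secretory gene of airway epithelium, at 0.328 ± 0.0513 and 0.804 ± 0.106 CPM (log2 fold change 1.30, SE 0.19, with an edgeR adjusted p of 0.0369). The signs of the markers stand beside 9860 positive values among all 18874 tested genes and 5787 negative values among the 9256 expressed genes. The summed level of 12 erythroid and platelet markers was 50.2 to 96.8 CPM with control AAV and 82.6 to 95.2 CPM with nANGPTL4 AAV, most of it from the platelet genes Itga2b and Ppbp, with 10 of 10 tested genes positive. Of these 10, 5 (50%) had an unadjusted p under 0.05, beside 17.6% of all tested genes. All 5 were erythroid genes and higher, with log2 fold changes from 0.74 to 2.08 at group means of at most 3.78 CPM. The value of 2.08 was that of Hbb-bt, at 0 to 0.121 CPM with control AAV and 0.118 to 0.296 CPM with nANGPTL4 AAV. Hbb-bt passed the filter on low counts mainly through the nANGPTL4 AAV libraries, so its sign was largely set by the filter. Sums were 353 to 520 and 498 to 612 CPM for 17 lung epithelial markers (15 of 17 positive), and 19.2 to 40.9 and 30.7 to 50.7 CPM for 14 myeloid markers (4 of 5 tested positive). They were 3.22 to 3.62 and 3.85 to 7.69 CPM for 14 lymphocyte markers (6 of 6 tested positive), and 80.4 to 152 and 89.4 to 182 CPM for 14 fibroblast and mural markers (7 of 14 positive). The sums of the groups overlapped in each of these lists except that for lymphocytes. Of the tested lymphocyte markers 4 of 6 (66.7%) had an unadjusted p under 0.05, all higher. For lung epithelial markers it was 4 of 17 (23.5%), 3 of them higher. It was 1 of 5 (20%) for myeloid markers, higher, and 1 of 14 (7.14%) for fibroblast and mural markers, lower. The lymphocyte marker Cd4, at 0.0442 to 0.157 and 0.173 to 0.224 CPM, passed the filter on low counts with help from the nANGPTL4 AAV libraries. Lymphocyte markers that failed the filter went both ways, such as Cd8a at means of 0.0727 and 0.0219 CPM and Nkg7 at 0.0443 and 0.143 CPM. In 0 of these lists was a marker at 0 in every library. The 16 endothelial markers, whose sums were given above, were negative in 15 cases, and their median was -0.05 on the log2 scale. Of the 16, 4 (25%) had an unadjusted p under 0.05, all lower. These signs depended on the scaling: 10 of the 16 were negative under upper quartile scaling and 10 by library size only. The medians were then -0.01 and -0.0. Genes of the immediate early and dissociation response summed to 12430 to 19080 CPM with control AAV and 14661 to 19797 CPM with nANGPTL4 AAV, with 12 of 14 positive and 0 at an unadjusted p under 0.05. The part of these differences in the values of Slc2a1, Ldha and Hif1a was not tested. In sorted bulk cells, fewer cells of a kind and less RNA per cell cannot be told apart.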

How the data were processed

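RNA of sorted lung endothelial cells was sequenced from 4 control AAV and 4 nANGPTL4 AAV mice, which the labels call independent replicates. Per the labels' protocols, cDNA came from a low-input kit and libraries from a ChIP-seq library kit. The deposited values are raw read counts for each gene. Per the submitters' processing notes, mm10 was the genome build. The aligner, the counter, its handling of strand and the gene models are not given in the sources used here.

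Of 31610 gene identifiers 31491 were matched to a symbol. Coordinates, exon overlaps, recurring 31-base stretches and transcript lengths came from GENCODE M21, and promoter windows from RefSeq. Counts were tested with edgeR 4.0.16 in R 4.3.3: filterByExpr with a minimum count of 10, TMM scaling, the quasi-likelihood F test with the group as the only term, and Benjamini-Hochberg adjustment over the 18874 genes tested. The biological coefficient of variation was 11.3%. CPM used TMM-scaled library sizes, and log2 CPM a prior count of 2. SE and 95% intervals come from the same fit. The script was tested on simulated counts.

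All 33 genes are named. Values per library are given for genes with an unadjusted p under 0.05, for the most abundant gene per kilobase of each role, for Angptl4, and for G6pdx, Hk2, Aldoc and Pdp1, added after their values were seen. Of each neighbouring list the called genes and up to 3 with the smallest p are named. The markers Scgb3a2, Itga2b, Ppbp, Hbb-bt, Cd4, Cd8a and Nkg7 were named after their values were seen. The genes and lists were chosen with earlier results of these data known.

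Alternatives were 3 further scalings, a fit without the filter and one with a minimum count of 50, DESeq2 1.42.0, limma-voom with quality weights (limma 3.58.1), a block for the replicate number, the omission of each library, and an adjusted p under 0.10. The union of exons as length was chosen after seeing the data.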

Additional observations from a re-analysis of the deposited data

Results flagged for a closer look

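In 4 of 126 groups of 4 libraries looked at, each a gene named in the text in 1 group, a single library stood apart from the other 3. Chance gives about 1 in 20 such groups, or 6.3 here. Pfkfb1 was at 0.907 CPM in control AAV library 3, where the other 3 control libraries lay between 1.33 and 1.35 CPM. Gapdh was at 110 CPM in nANGPTL4 AAV library 4, where the others of that group were all at 113 CPM, a small step that stands apart because those 3 lay so close. Gsr was at 57.5 CPM in nANGPTL4 AAV library 3 and at 54.7 to 54.9 CPM in the others of that group. Srxn1 was at 21.6 CPM in nANGPTL4 AAV library 4 and at 23.3 to 23.6 CPM in the others.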

How the results depend on the processing

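None of the 31 tested genes of the pathway was called in any of the 16 alternative fits or at an adjusted p under 0.10. The count of called genes in the whole table moved far more: from 26 to 4 under upper quartile scaling, 4 by library size only, 17 with the stricter filter, 956 with DESeq2 and 471 at an adjusted p under 0.10, and to between 1 and 2 when any 1 library was left out. The median log2 fold change of the pathway was -0.015, and 0.025 under upper quartile scaling and 0.029 by library size only. The median of all tested genes moved by a like amount, from 0.01 to 0.05 under both. These scalings changed the sign of 8 and 10 of the 31 genes, all close to 0, while leaving out 1 library changed 3 to 5. Slc2a1 and Ldha kept a negative value throughout. With the replicate number as a block 6 genes were called, 0 of them in the pathway. Deviations of same-numbered libraries had correlations of 0.155, 0.144, -0.248 and -0.376 for numbers 1 to 4. A library correlated best with its own number in 1 of 4 cases. These values gave no sign that the numbers pair the libraries, but so few correlations cannot exclude a weak pairing. The causes of these shifts were not tested. Hk2 and Aldoc, with 5 to 23 counts per library, were too shallow to be tested.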
